A study of Mus musculus with 5 samples.

Results

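The genes described here encode colony-stimulating factors and their receptors: the ligands Csf1 and Csf2, the receptor chains Csf1r, Csf2ra, Csf2rb, Csf2rb2 and Csf3r, and the related receptor Flt3. They were chosen by symbol, 8 of the 19726 gene symbols listed in every library, and all 8 were found. RNA had been sequenced from CD4+ T cells of MC38 tumors (n = 2, replicates 2 and 3) and of spleen (n = 3, replicates 1, 2 and 3) with all mice wild-type, of the strain C57/Bl6j and 7 weeks old. The MC38 line is a mouse colon carcinoma that grows in this strain. The labels do not state how the cells were purified, or whether mice were pooled or separate, so p-values refer to these libraries only. The limma test used below takes each gene's variance mainly from a trend over all genes tested, not from its own spread alone. It had 3 residual and 44.1 prior degrees of freedom. Levels are in TPM, which states a gene's share of all transcripts after correction for transcript length.

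Colony-stimulating factors are secreted proteins that keep myeloid cells alive and direct their growth. CSF1 (M-CSF) acts through the tyrosine kinase receptor CSF1R on monocytes and macrophages, CSF2 (GM-CSF) through an alpha and a beta chain that signal by JAK2 and STAT5, and CSF3 (G-CSF) through CSF3R, best known on neutrophils. FLT3 is a kinase receptor related to CSF1R, found on early progenitors and dendritic cells. T cells are a classical source of CSF2 after activation, whereas the receptors are textbook genes of the myeloid lineage.

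Reference sequence bears on these genes in 2 places. Csf2rb encodes the beta chain shared by the receptors for GM-CSF, interleukin-3 and interleukin-5, and Csf2rb2 encodes a second beta chain, found in mice, that serves interleukin-3. The genes lie 20.03 kb apart on chromosome 15 (GRCm38; Csf2rb at 78325752 to 78353847 on the plus strand, Csf2rb2 at 78282507 to 78305721 on the minus strand). Over 2628 aligned bases their coding sequences were 95.2% identical, with a longest identical run of 242 bases. Of all 31-base words in the annotated Csf2rb2 transcripts, 28.6% also occurred in a Csf2rb transcript, and 18.8% the other way round. The first 60 coding bases of each, which lie at chr15:78335207-78335266 (plus strand) and chr15:78298170-78298229 (minus strand) in the GENCODE transcripts, show how close the copies are. The capital marks their only mismatch.
Csf2rb: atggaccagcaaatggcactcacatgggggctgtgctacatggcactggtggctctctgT
Csf2rb2: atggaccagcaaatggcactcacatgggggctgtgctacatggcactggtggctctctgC
Reads from such stretches can be assigned to either gene, so the split of signal between Csf2rb and Csf2rb2 is uncertain, and their sum is given below as well.

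RefSeq promoter sequences (GRCm38.p6) were matched for 6 of the 8 genes. None was matched for Csf1r and Csf2rb, which rose most of the 8 in tumor. The 250 bases before each annotated start were searched on both strands. The core GAGGAA of the myeloid factor PU.1 occurred in 3 of the 6, Csf2ra, Csf3r and Csf2rb2, and in 23.3% of all 32851 promoter windows. It did not occur in the windows of Csf1, Csf2 and Flt3. The 30-base stretches that hold it are shown because these 3 receptor genes were all higher in the tumor libraries. Csf1 was called higher as well, without the core in its window. Capitals mark the core, which reads TTCCTC where it lies on the other strand.
Csf2ra: ttcccaacctgcagatGAGGAAGAGGAAgc
Csf3r: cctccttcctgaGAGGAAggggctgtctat
Csf2rb2: ctctgtgtctgcTTCCTCcagagaagtcag
They lie at chr19:61228419-61228448 (minus strand), chr4:126024561-126024590 (plus strand) and chr15:78305871-78305900 (minus strand). In GENCODE the Csf3r transcript begins 109 bases upstream of the RefSeq start, which puts its stretch inside the annotated transcript, and that of Csf2ra begins 11 bases upstream. The GENCODE start of Csf2 lies 232 bases from the RefSeq start, so that the Csf2 window is not the one before the GENCODE transcript. Other motifs were TGANTCA for AP-1, in none of the 6 and in 6.75% of all windows; TTNCNNAA for C/EBP, in Csf2 and Csf2ra and in 36.8%; and GGG with CC 5 bases further on for NF-kappaB, in Csf1, Csf2ra and Csf3r and in 45.8%. The motifs do not overlap each other apart from NF-kappaB matches on opposite strands. A match is a description of these letters and shows no binding.

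The tumor libraries did not carry the marker profile of a pure T cell sample. All 11 T cell identity genes were lower in them, with summed levels of 309 and 240 TPM in tumor and 970, 1284 and 1056 TPM in spleen. All 16 macrophage and monocyte markers were higher, with sums of 7072 and 7390 TPM in tumor and 35.6, 47.1 and 44.7 TPM in spleen. Of the other lists, B cell markers summed to 25.3 and 32.1 TPM in tumor and 19.0, 15.8 and 17.2 TPM in spleen. Blnk made up 12.8 and 14.2 TPM of this in tumor and at most 1.46 TPM in spleen. Blnk and Cd79b were called higher, while Cd79a was called lower. Endothelial markers summed to 93.8 and 103 TPM in tumor and 63.1, 73.3 and 66.4 TPM in spleen. Kdr made up 32.7 and 33.1 TPM of this in tumor and at most 0.843 TPM in spleen. Kdr and Cdh5 were called higher, while Pecam1 and Vwf were not called. NK cell markers summed to 8.33 and 11.1 TPM in tumor and 17.9, 18.4 and 16.3 TPM in spleen, and those of mast cells, basophils and eosinophils to 4.31 and 5.12 TPM in tumor and 14.5, 16.8 and 14.7 TPM in spleen. A smaller number of cells of a type and less RNA per cell cannot be told apart in such samples. Olfactory receptor genes, which T cells are not known for, gave a background level. It is their 95th percentile, 7.59 and 10.7 TPM in tumor and 10.6 to 16.2 TPM in spleen. Their median was 0.321 and 0.441 TPM in tumor and 0.471 to 0.741 TPM in spleen. The median of all symbols was 2.81 and 3.16 TPM in tumor and 2.34 to 2.58 TPM in spleen, so most symbols also lay below the background level. In limma's test (log2 of TPM + 1, Benjamini-Hochberg adjusted p below 0.05, all genes averaging 1 TPM or more) 59.0% of 12979 genes were called, 40.9% as higher in tumor and 18.1% as lower. That split depends on scaling: 2724 genes were higher and 6662 lower with equal listed totals, 4313 and 3920 by median ratios, and 12263 and 124 with scaling to the T cell identity genes, against 5309 and 2347 in the deposited TPM.

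**Figure D1:**
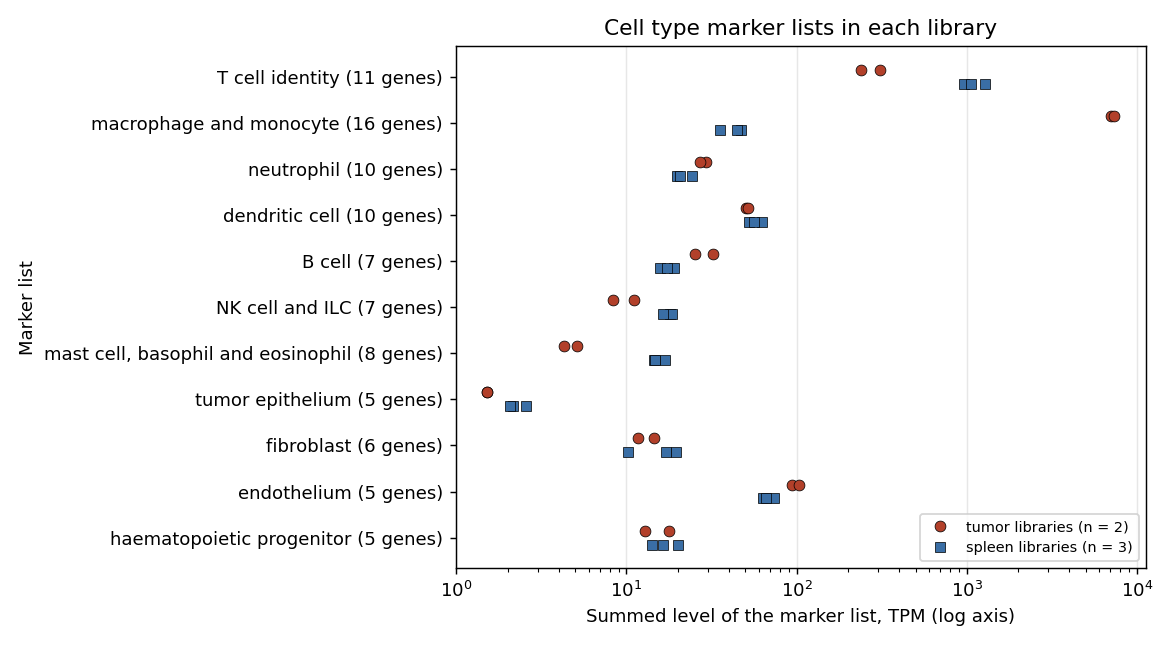
Summed TPM (log axis) of the 11 marker lists in each tumor library (circles) and spleen library (squares). Macrophage and monocyte markers reach 7072 and 7390 TPM in tumor against at most 47.1 TPM in spleen, while the sums of the neutrophil, dendritic cell and fibroblast lists differ far less. Ccr7, which was called lower in tumor, is a large part of the dendritic cell sum.

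Most receptor genes of the myeloid growth factors were much higher in the tumor libraries. Of the ligand genes, Csf2 was low in both tissues. Csf1 stood at the 68.5th and 62.0th percentile of all symbols in tumor. Of the 8 genes 6 were called higher in tumor, namely 5 of the 6 receptor genes and the ligand gene Csf1, and none was called lower by limma in the deposited TPM (0 also at an unadjusted p below 0.05). Csf2 and Flt3 had a mean below 1 TPM and were tested only without the filter, where the same 6 genes of 8 were called higher, against 26.1% of 19726 symbols (36.1% were called in either direction). For Csf1r and Csf3r the spleen mean was itself below 1 TPM, so that these genes passed the filter only through their tumor level. In 6 of 8 genes both tumor libraries lay above every spleen library, as they did for 46.6% of the genes tested and 33.1% of all symbols. In none did both lie below every spleen library, as they did for 23.8% of the genes tested and 25.0% of all symbols. The 8 levels summed to 434 and 493 TPM in tumor and to 19.5, 13.6 and 18.8 TPM in spleen.

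**Figure D2:**
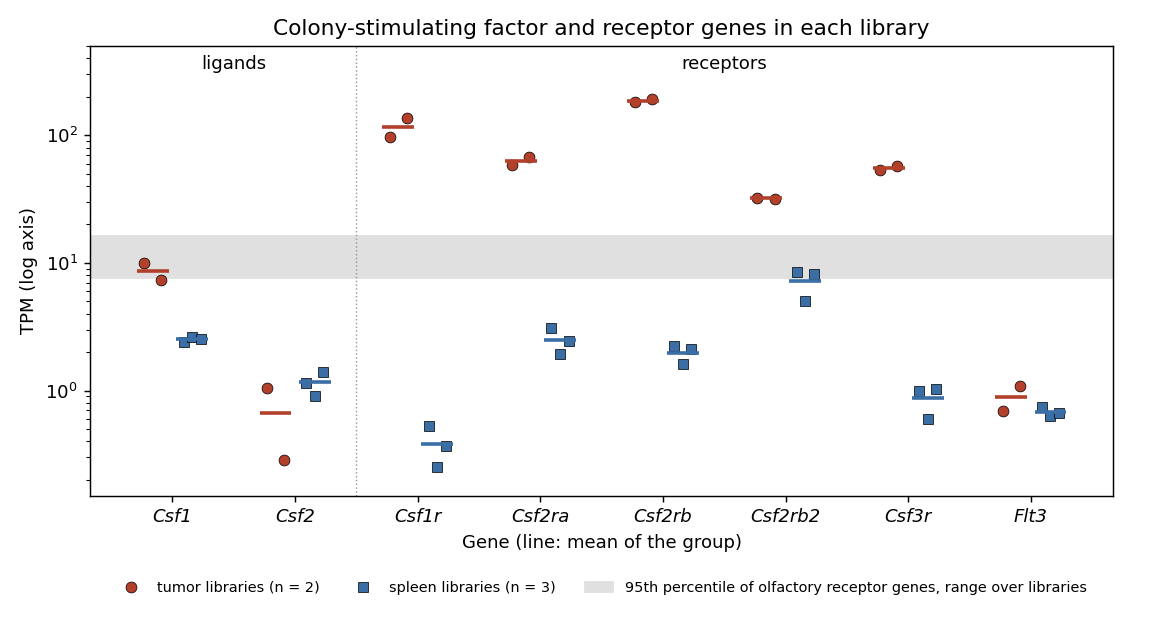
TPM (log axis) of each gene in every library, tumor circles left of spleen squares, with the group mean as a line and the background from olfactory receptor genes as a grey band. Csf1r, Csf2ra, Csf2rb, Csf2rb2 and Csf3r lie above the band in both tumor libraries and near or below it in spleen; Csf2 and Flt3 stay below it throughout.

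Csf1 (chromosome 3, 107741048 to 107760469), the gene of M-CSF, was at 10.03 and 7.29 TPM in tumor replicates 2 and 3, against 2.40, 2.62 and 2.52 TPM in spleen replicates 1, 2 and 3. Both tumor values were above all spleen values, although only tumor replicate 2 exceeded the background level of its own library. The log2 change was 1.44 ± 0.21 (SE; limma adjusted p = 5.8e-08). It was 0.68 with equal listed totals, and the gene was still called there (limma adjusted p = 0.0118).

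Csf2 (chromosome 11, 54247271 to 54249667), the gene of GM-CSF, was at 1.05 and 0.286 TPM in tumor, against 1.16, 0.911 and 1.41 TPM in spleen. The tissues overlapped, the tumor libraries differed from each other more than the spleen libraries did, and every value lay below the background level. Without the filter its log2 change was -0.40 ± 0.22 (SE; limma adjusted p = 0.184), with no call. Its sign turned with the scaling, at 0.54 (limma adjusted p = 0.107) on T cell identity genes and -0.81 with equal listed totals, where it was called lower (limma adjusted p = 0.0328). Il3, the neighbouring interleukin-3 gene 15.64 kb away, was at 0.0824 and 0.205 TPM in tumor and 0.278, 0.141 and 0.290 TPM in spleen.

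Csf1r (chromosome 18, 61100598 to 61132149), the M-CSF receptor gene, was at 96.1 and 136 TPM in tumor, against 0.531, 0.251 and 0.368 TPM in spleen. It had the lowest level of the 8 genes in each spleen library and the second highest in each tumor library. The log2 change was 6.39 ± 0.21 (SE; limma adjusted p = 2.1e-30), the 95th largest rise of the 12979 genes tested. For Csf1r the limma adjusted p varied with the setting, from 6.7e-191 with a filter of 5 TPM to 3.4e-07 with equal listed totals. The ratio of mean TPM was 303, but it rests on a spleen level below background. Its 3′ end overlaps Hmgxb3 on the opposite strand, which was at 5.03 and 6.12 TPM in tumor and 4.54, 5.42 and 4.71 TPM in spleen and was not called (limma adjusted p = 0.521), though it was called at -0.62 with equal listed totals and at 1.95 with scaling to T cell identity genes. No source used here gives whether the quantification used strand. Pdgfrb, a related receptor gene of mesenchymal cells that lies 15.54 kb upstream, stayed at or below 0.258 TPM in every library. Slc26a2, a sulfate transporter gene 60.77 kb away on the other side, was at 23.9 and 29.9 TPM in tumor and 9.10, 10.2 and 8.88 TPM in spleen (log2 change 1.42; limma adjusted p = 6.9e-08).

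The genes of the GM-CSF receptor followed. Csf2ra (chromosome 19, 61223957 to 61228429), the alpha chain that binds GM-CSF, was at 58.9 and 67.4 TPM in tumor, against 3.09, 1.95 and 2.45 TPM in spleen (log2 change 4.21 ± 0.21, SE; limma adjusted p = 3.3e-23). Csf2rb, the shared beta chain, reached the highest level of the 8 genes in tumor, at 181 and 191 TPM, against 2.22, 1.63 and 2.11 TPM in spleen (log2 change 5.98 ± 0.21, SE; limma adjusted p = 1.5e-29). It stood at the 97.6th percentile of all symbols in both tumor libraries, and between the 45.1st and 47.9th in spleen. Csf2rb2 was at 32.5 and 31.7 TPM in tumor, against 8.41, 5.03 and 8.19 TPM in spleen (log2 change 2.04 ± 0.22, SE; limma adjusted p = 1.4e-11). It was thus the beta chain gene with the higher listed level in spleen and with the lower one in tumor. The sum of both beta chain genes depends on the split of shared reads only through transcript length. It came to 214 and 223 TPM in tumor and to 10.6, 6.65 and 10.3 TPM in spleen, a ratio of means of 23.8. Ncf4, an oxidase subunit gene of phagocytes that flanks Csf2rb2 at 19.93 kb, was at 127 and 142 TPM in tumor and 10.9, 16.7 and 17.9 TPM in spleen (limma adjusted p = 1.6e-17).

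Csf3r (chromosome 4, 126024550 to 126044440), the G-CSF receptor gene, was at 53.1 and 57.8 TPM in tumor, against 0.994, 0.599 and 1.04 TPM in spleen. No spleen library came near the tumor level, and the log2 change was 4.92 ± 0.21 (SE; limma adjusted p = 4.5e-26). The 10 neutrophil markers were mixed in the same tumor libraries. Mmp8 was at 12.4 and 8.20 TPM in tumor and at most 0.342 TPM in spleen, and S100a9 at 3.58 and 1.88 TPM in tumor and at most 0.668 TPM in spleen. Cxcr2 was at 6.72 and 11.7 TPM in tumor and 18.8, 13.4 and 14.3 TPM in spleen. In tumor Ly6g was at 0.602 and 0.125 TPM, S100a8 at 2.57 and 0.432 TPM, Retnlg at 0.356 and 0.663 TPM, and Camp was listed at 0 in both. In spleen these 4 genes lay between 0.149 (Camp) and 1.09 TPM (S100a8). The whole list summed to 29.5 and 26.96 TPM in tumor and to 24.4, 19.8 and 20.7 TPM in spleen. Of these 10, 2 were called higher (S100a9 and Mmp8), 1 lower (Cxcr2; the call was lost without tumor replicate 2 and the sign turned with scaling to T cell identity genes), 3 were not called and 4 were not tested. Their part in the Csf3r difference was not tested. Its neighbour Mrps15, 2.48 kb away, was not called (14.4 and 18.1 TPM in tumor; 12.98, 14.3 and 14.3 TPM in spleen; limma adjusted p = 0.387), though it was called at -0.66 with equal listed totals and at 2.20 with scaling to T cell identity genes.

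Flt3 (chromosome 5, 147330741 to 147400489) was the receptor gene without a call, at 0.692 and 1.09 TPM in tumor, against 0.740, 0.638 and 0.672 TPM in spleen. The tissues overlapped and all values lay below background. Without the filter the log2 change was 0.16 ± 0.16 (SE; limma adjusted p = 0.459). It was -0.24 with equal listed totals, and 1.17 with scaling to T cell identity genes, where it was called (limma adjusted p = 0.00169). Dendritic cell markers, 10 genes, summed to 50.6 and 51.6 TPM in tumor and to 52.5, 63.0 and 56.3 TPM in spleen. Ccr7, the marker called lower, made up 14.9 and 15.5 TPM of this in tumor and 35.1, 49.3 and 39.1 TPM in spleen. Xcr1, Batf3, Fscn1 and Cd24a were called higher. Of the 9 tested, 4 were called higher and 1 lower, a share near the 40.9% of all genes called higher. The counts were 4 and 4 with equal listed totals, 4 and 2 by median ratios, and 9 and 0 with scaling to T cell identity genes.

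The 6 genes called higher rose under each of the 3 other scalings as well. The smallest change among these settings was 0.68 for Csf1 and 1.16 for Csf2rb2, both with equal listed totals. For Csf1r, Csf2rb, Csf3r and Csf2ra the smallest were 5.71, 5.15, 4.17 and 3.37, again with equal listed totals. All 16 macrophage and monocyte markers likewise lay higher in both tumor libraries than in every spleen library, as did 46.6% of the genes tested. The part of these markers in the differences was not tested.

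**Figure D3:**
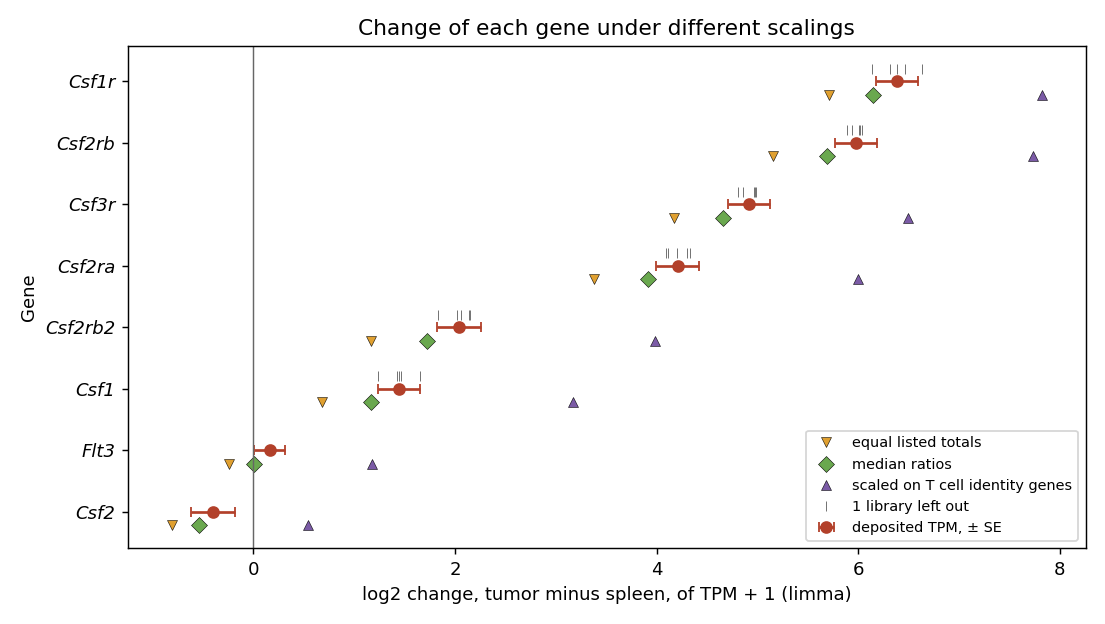
Log2 change (tumor minus spleen, TPM + 1) of each gene in the deposited TPM with its SE, under 3 other scalings, and with each library left out (ticks; not run for Flt3 and Csf2). The 6 upper genes lie right of 0 throughout, while the sign for Flt3 and Csf2 turns with the scaling.

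The order of the genes differed between the tissues. In both tumor libraries it ran Csf2rb, Csf1r, Csf2ra, Csf3r, Csf2rb2, Csf1, with Flt3 and Csf2 last in either order. Csf2ra and Csf3r were adjacent in tumor and 1 SD of Csf2ra (6.02 TPM) covered the gap between their nearest values. In spleen Csf2rb2 was highest and Csf1r lowest in all 3 libraries, and the ranges of Csf2ra, Csf1 and Csf2rb ran together between 1.63 and 3.09 TPM. All of these spleen levels lay below the background level, as did those of most symbols. Csf2rb2 still stood between the 60.7th and 73.0th percentile of all symbols in spleen.

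Ratios between genes within a library do not move with a scaling of the whole library, apart from the added 1 TPM, and 5 of them were compared. The ratios printed here are of TPM itself, whereas the log2 differences beside them are of TPM + 1. The ratio of Csf2rb to Csf2ra was 3.08 and 2.84 in tumor and 0.718, 0.833 and 0.863 in spleen. The log2 ratios differed by 1.77, a value that rests on the uncertain split of reads between Csf2rb and Csf2rb2. The sum of both beta chain genes exceeded Csf2ra in every library of either tissue. The ratio of Csf2rb2 to Csf2rb was 0.179 and 0.166 in tumor and 3.79, 3.09 and 3.88 in spleen (log2 difference -3.94), with the uncertainty of shared reads. Csf3r stood to Csf1r at 0.553 and 0.426 in tumor and 1.87, 2.39 and 2.82 in spleen (log2 difference -1.47). Csf1r stood to its ligand gene Csf1 at 9.58 and 18.6 in tumor and 0.221, 0.0958 and 0.146 in spleen (log2 difference 4.94). Flt3 stood to Csf1r at 0.00721 and 0.00800 in tumor and 1.39, 2.55 and 1.83 in spleen (log2 difference -6.23). Without the added 1 TPM these 5 log2 differences were, in the same order, 1.88, -4.37, -2.26, 6.52 and -7.94. The libraries of the tissues did not overlap for any of the 5 ratios. In a two-sided exact permutation test each gave p = 0.2 (also p = 0.2 adjusted over the 5), the smallest p that 2 against 3 libraries allow, so that none could reach 0.05. In spleen every gene of these pairs lay below the background level of each library, so all spleen ratios rest on such values.

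**Figure D4:**
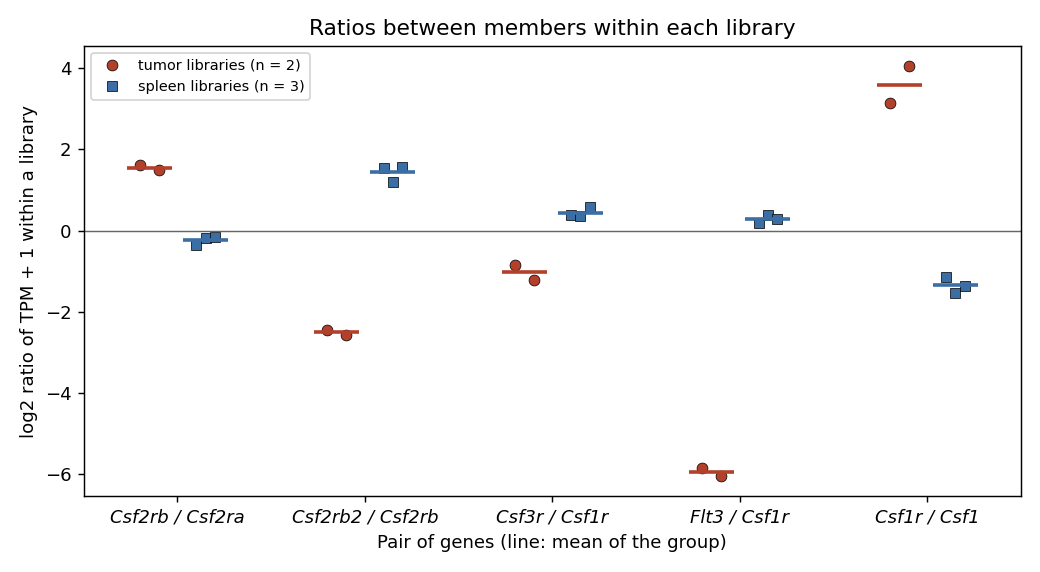
Log2 ratio of TPM + 1 between pairs of genes in each library, tumor circles left of spleen squares, with group means as lines. Each of the 5 pairs lies on opposite sides of 0 in the tissues, as for Csf2rb over Csf2ra, with means of 1.55 in tumor and -0.22 in spleen.

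For each of the 6 tested genes the genes nearest in profile were taken by Euclidean distance of log2(TPM + 1) over the 5 libraries. Csf1r lay nearest to Adgre1 (distance 0.20), C5ar1 (0.31) and Havcr2 (0.32). Adgre1, the gene of the F4/80 antigen of macrophages, was at 103 and 127 TPM in tumor and 0.440, 0.353 and 0.312 TPM in spleen. Csf2rb lay nearest to Plau (0.32), Itgam (0.37) and Spi1 (0.49). Csf2ra had Pde7b (0.29), Sh2b2 (0.31) and Bst1 (0.32), and Csf3r had Fgr (0.20), Tnfaip2 (0.35) and Pilra (0.38). Csf2rb2 had Sap18b (0.17) and Cwc25 (0.44) among its nearest, and Csf1 had Kcnrg (0.16), Siah2 (0.28) and Mctp1 (0.29). The distances describe these 5 libraries, in which tissue is the main difference.

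Other ligands and receptors of the same families moved in both directions. Of 11 related genes 3 were called higher, 2 lower and 2 not at all, and 4 were too low to be tested. That is close to the shares among all genes tested, 40.9% higher and 18.1% lower, and the median log2 change of the 7 tested was 0.28, against 0.23 for all genes. The counts of higher and lower genes were 2 and 3 with equal listed totals (median -0.37), 2 and 2 by median ratios (0.04), and 6 and 0 with scaling to T cell identity genes (1.82). Flt3l, the ligand gene of FLT3 that T cells express, was at 6.64 and 8.01 TPM in tumor and 24.0, 44.4 and 27.9 TPM in spleen (log2 change -1.95; limma adjusted p = 1.4e-10). Its fall was absent with scaling to T cell identity genes (0.02), which were themselves lower in tumor. Il34, the alternative ligand gene of CSF1R, was at 4.56 and 1.86 TPM in tumor and 7.03, 2.53 and 6.20 TPM in spleen, without a call (limma adjusted p = 0.055) and with overlap. It was called with equal listed totals (-1.28), without tumor replicate 2, without spleen replicate 2 and, with the sign turned, with scaling to T cell identity genes (1.09). Csf3, the G-CSF gene, was at 2.24 and 0.829 TPM in tumor and at most 0.223 TPM in spleen, below 1 TPM on average and not tested. Il3ra, the interleukin-3 alpha chain that pairs with both beta chains, was at 13.4 and 12.2 TPM in tumor and 1.49, 1.74 and 1.24 TPM in spleen (log2 change 2.47; limma adjusted p = 1.1e-14). Il5ra, which pairs with the product of Csf2rb, was at 3.47 and 5.34 TPM in tumor and 8.99, 6.32 and 7.29 TPM in spleen (log2 change -0.67; limma adjusted p = 0.00652). That call was lost without tumor replicate 2 and the sign turned on T cell identity genes (1.14). The largest rise was that of Crlf2, the receptor gene for thymic stromal lymphopoietin, at 31.5 and 35.2 TPM in tumor and 3.61, 5.49 and 3.98 TPM in spleen (limma adjusted p = 7.7e-16).

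Most signalling genes near these receptors were higher in tumor. Of 16, 13 were called higher, 1 lower and 2 not at all, with a median log2 change of 2.13. The counts of higher and lower genes were 10 and 3 with equal listed totals, 12 and 3 by median ratios, and 16 and 0 with scaling to T cell identity genes. Tyrobp, the adaptor DAP12 that works with CSF1R in myeloid cells, rose most, to 747 and 828 TPM in tumor, against 2.58, 3.34 and 2.95 TPM in spleen (log2 change 7.64; limma adjusted p = 8.6e-34). Cbl, a ubiquitin ligase that turns these receptors over, was the gene called lower, at 36.0 and 42.1 TPM in tumor and 50.3, 79.6 and 50.7 TPM in spleen (log2 change -0.58; limma adjusted p = 0.0197). Its call was lost without tumor replicate 2 and without tumor replicate 3, and the sign turned on T cell identity genes (1.49). Among 10 STAT5 targets and feedback genes 8 were called higher and 1 lower, with a median of 2.76, beside 40.9% of all genes called higher. These counts were 7 and 2 with equal listed totals and by median ratios, and 10 and 0 with scaling to T cell identity genes. Osm, the oncostatin M gene, was at 210 and 207 TPM in tumor and 2.21, 3.92 and 2.95 TPM in spleen (log2 change 5.72; limma adjusted p = 2.7e-28). Cish, a feedback inhibitor of STAT5 signalling, was at 11.2 and 12.5 TPM in tumor and 2.78, 4.64 and 3.18 TPM in spleen (log2 change 1.52; limma adjusted p = 2.3e-08). Pim2, a survival kinase gene, was at 3.72 and 3.93 TPM in tumor and 7.27, 11.7 and 8.78 TPM in spleen (log2 change -1.06; limma adjusted p = 2.7e-05), with a positive sign on T cell identity genes (0.75).

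All 9 transcription factor genes listed for control of the receptor genes were called higher, with a median log2 change of 4.09, beside 40.9% of all genes called higher. Cebpa and Cebpe, with spleen means of 0.576 and 0.126 TPM, passed the filter only through their tumor level, and Cebpe stayed below background in tumor as well, at 2.51 and 2.24 TPM. Spi1, the gene of PU.1, was at 173 and 205 TPM in tumor and 2.26, 1.55 and 3.32 TPM in spleen (log2 change 5.84; limma adjusted p = 3.1e-28). Fos, an AP-1 subunit gene that is also induced by handling of cells, was at 1061 and 1018 TPM in tumor and 8.37, 1.99 and 10.9 TPM in spleen (log2 change 7.23; limma adjusted p = 3.7e-27). All 9 were also called higher under the 3 other scalings. The macrophage and monocyte marker sums of at least 7072 TPM apply to the same tumor libraries, and their part in these lists was not tested.

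**Figure D5:**
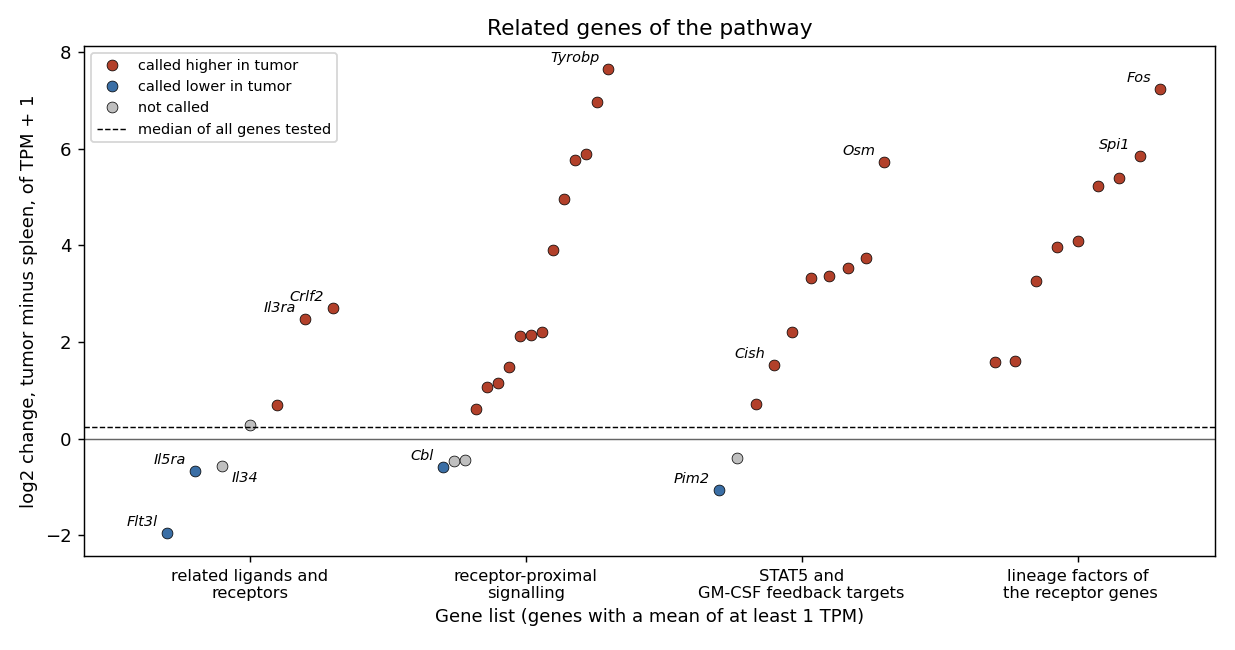
Log2 change (tumor minus spleen, TPM + 1) of the tested genes of each pathway list, coloured by limma's call, with the median of all genes tested (0.23) as a dashed line. Related ligands and receptors lie on both sides of 0, while all 9 lineage factors lie at 1.58 or above.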

How the data were processed

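Each deposited file gives 1 TPM value per gene symbol for 1 library of stranded, ribosomal RNA-depleted total RNA. The authors' unit is taken as TPM because the deposited values are not whole and sum to between 268987 and 596116 per library. The totals were higher in tumor, at 596116 and 569309 for replicates 2 and 3. In spleen they were 268987, 359532 and 292344 for replicates 1, 2 and 3. Scaling to equal listed totals therefore lowers tumor levels against spleen. The median log2 change of all genes tested was 0.23 in the deposited TPM and -0.54 with equal listed totals. The cause of the split in totals was not tested. Named in the submitters' processing notes are kallisto, DESeq2 and mm10, without versions or roles. Depth is unknown, so no counting interval is given. The lists and the 8 genes were chosen with earlier results of these data known.

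Values were tested as log2(TPM + 1) in R 4.3.3 by limma 3.58.1; the model held tissue alone, and variances were moderated toward a trend on mean level. Tests were two-sided, with Benjamini-Hochberg adjustment over the 12979 genes averaging 1 TPM or more (3 residual and 44.1 prior degrees of freedom). The fit was tested on simulated data. Named genes were the 8, the largest called rise and fall of each pathway list, fixed partner genes, and the 3 nearest profiles of each tested gene of the 8, of which 1 is not reported here. Neighbours, nearest listed protein-coding genes, were added after the data were seen, as were the neutrophil examples. Loci and transcripts come from GENCODE vM21 (GRCm38). Alternatives were 3 scalings, 2 filters, 2 pseudocounts, no trend, the replicate block and each library left out.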

Additional observations from a re-analysis of the deposited data

How the results depend on the processing

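The 6 genes called higher kept that call under every scaling, filter, pseudocount and left-out library in which they were tested; with a filter of 5 TPM, 5 were called, as Csf1 was not tested. Over all settings Csf1r ranged from 3.58 to 7.93 on the log2 scale, Csf2rb from 4.03 to 7.73, Csf3r from 2.59 to 6.49, Csf2ra from 2.55 to 5.996, Csf2rb2 from 1.16 to 3.98 and Csf1 from 0.57 to 3.17. Csf2 and Flt3, tested without the filter, turned sign at 0.54 (Csf2, T cell identity scaling) and -0.24 (Flt3, equal listed totals), and were called at -0.81 (Csf2, equal listed totals) and 1.17 (Flt3, T cell identity scaling); these scalings without the filter were added after seeing the data. Over all genes 2724 were higher and 6662 lower with equal listed totals, 3920 lower by median ratios, 12263 higher and 124 lower on T cell identity genes, and 1456 lower with a filter of 5 TPM. Of the pathway genes 8, 7 and 0 were lower under the 3 scalings, against 4. With a library left out, 4390 to 5842 genes were higher and 1209 to 2623 lower (1209 without tumor replicate 2), and 3 to 7 pathway genes were lower (7 without spleen replicate 1). Where 1 tumor library remained, its spread was taken to equal that in spleen. The scalings move whole libraries against each other, and the cause of the other shifts was not tested. Without the added 1 TPM, and in the other settings run, all 5 ratios kept their sign. With the replicate number as a block 6 of the 8 genes were called higher, and 4877 genes were higher and 2013 lower. Equal numbers are not stated to mark a mouse; deviations of same-numbered libraries correlated at 0.202 and 0.0661. Depth is unknown, and the background level was 7.59 and 10.7 TPM in tumor and 10.6 to 16.2 TPM in spleen.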
